A study of Mus musculus with 16 samples.

Results

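The data described here are the transcripts of 10 genes of the NRF2 antioxidant pathway in primary mouse astrocytes: *Nfe2l2*, *Nqo1*, *Hmox1*, *Gclc*, *Gclm*, *Srxn1*, *Txnrd1*, *Slc7a11*, *Sod2* and *Prdx1*. They are textbook members of this pathway, chosen by name with earlier results of these data known, and all 10 were among the 16707 genes of the deposited table of log2 CPM, a log scale of read counts scaled to library size. Astrocytes were isolated from P6 pups with beads against the astrocyte antigen ACSA-2, from 4 wild-type (WT, C57BL/6J) litters and 4 litters of mice that lack the mitochondrial protein NLRX1 (Nlrx1-/-). The age of P6 is that of the paper's methods, while its results text gives younger pups. Cells of every litter were split between vehicle (water) and LPS at 500 ng/mL with IFNγ at 10 ng/mL for 24 h, which gave 16 libraries in 4 groups of 4. LPS, a bacterial cell wall component, and IFNγ, a lymphocyte cytokine, are commonly used together to put astrocytes into an inflammatory state. All groups were grown without serum in medium with HB-EGF at 5 ng/mL and the antioxidant N-acetyl cysteine at 5 µg/mL, so the stimulus was given on top of an added thiol in every well. Nlrx1 is absent from the whole animal in these mice and not from astrocytes alone.

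NRF2, the protein made from *Nfe2l2*, is a transcription factor that is held at a low level in resting cells because KEAP1 and the ubiquitin ligase built on CUL3 mark it for degradation. When reactive molecules modify KEAP1, NRF2 escapes, enters the nucleus, pairs with a small MAF protein and binds antioxidant response elements (AREs) beside its target genes. In the brain this pathway is most active in astrocytes, which make glutathione and supply its precursors to neurons. NRF2 is controlled largely as a protein, so the level of its own transcript is not a measure of its activity.

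Promoter sequences were read from RefSeq (build GRCm38.p6) for 8 of the 10 genes. *Hmox1* and *Gclc* had no entry. The windows ran from 250 bases before to 50 bases after the annotated start, and *Txnrd1* had 3 of them, which made 10 windows. The letters TGACNNNGC, the core of an ARE, were searched on both strands and were found in 5 of the 10 windows (those of *Nfe2l2*, *Gclm*, *Srxn1* and *Prdx1* and 1 of *Txnrd1*), against 12.4% of the 32851 windows in the table. A variant core, TGAGNNNGC, was found in 3 of the 10 windows (*Srxn1*, *Slc7a11* and *Prdx1*), against 17.6% of windows. The AP-1 letters TGAGTCA were found in 2 of the 10 windows (*Srxn1* and *Prdx1*), against 5.2%, and in both genes 1 of the 2 AP-1 matches overlapped an ARE core or its variant. *Slc7a11* held the amino acid response element letters TTGCATCA at 2 positions on opposite strands, and 0.895% of all windows hold them. The letters TTCNNNGAA, which STAT proteins recognise, were found in 4 of the 10 windows (2 of *Txnrd1*, and those of *Slc7a11* and *Sod2*), against 8.3%. No window of the 8 genes held the E-box letters CACGTG, which 7.15% of windows hold. Such matches are letters in a short window and no evidence of binding. The 250 bases before the start are printed for the 3 genes with the most matches, with the ARE core, its variant, AP-1 and TTGCATCA letters in capitals, in the order *Slc7a11* (chr3:50443614-50443863, minus strand), *Srxn1* (chr2:152105274-152105523, plus strand) and *Prdx1* (chr4:116685349-116685598, plus strand).
Slc7a11: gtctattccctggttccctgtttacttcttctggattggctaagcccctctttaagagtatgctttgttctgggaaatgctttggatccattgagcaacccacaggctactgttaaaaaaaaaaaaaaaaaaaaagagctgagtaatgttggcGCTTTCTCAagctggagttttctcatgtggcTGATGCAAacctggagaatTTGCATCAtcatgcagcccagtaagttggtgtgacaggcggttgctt
Srxn1: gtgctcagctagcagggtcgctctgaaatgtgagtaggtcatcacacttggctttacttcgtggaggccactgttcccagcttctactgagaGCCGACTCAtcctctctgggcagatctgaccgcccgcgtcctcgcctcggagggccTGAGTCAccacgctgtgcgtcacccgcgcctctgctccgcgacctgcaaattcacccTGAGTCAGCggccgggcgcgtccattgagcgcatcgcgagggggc
Prdx1: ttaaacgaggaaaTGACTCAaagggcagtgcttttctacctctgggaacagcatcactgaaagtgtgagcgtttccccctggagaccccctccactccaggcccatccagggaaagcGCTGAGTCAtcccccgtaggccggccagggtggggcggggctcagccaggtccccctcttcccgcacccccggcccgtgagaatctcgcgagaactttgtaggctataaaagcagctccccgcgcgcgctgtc
For the other 3 genes with an ARE core, the match is printed with up to 10 bases on each side. The same is given for the core that lies 28 bases after the start of *Srxn1*. All are printed along the strand of the gene. The core of *Nfe2l2* lies on that strand and those of *Gclm*, *Txnrd1* and *Srxn1* on the opposite one, so the flanks are not aligned with each other.
Nfe2l2: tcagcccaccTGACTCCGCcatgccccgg
Gclm: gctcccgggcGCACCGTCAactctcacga
Txnrd1: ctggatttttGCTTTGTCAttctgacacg
Srxn1: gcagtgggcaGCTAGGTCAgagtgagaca

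The libraries held between 27259420 and 43752903 reads assigned to transcripts, with a median of 35554625. *Nlrx1*, the targeted gene, was measured first as a check of the labels: WT astrocytes held 4.22 ± 0.15 log2 CPM without and 4.12 ± 0.05 with the stimulus, and Nlrx1-/- astrocytes 2.47 ± 0.53 and 1.90 ± 0.54 (each SD, n = 4). Every Nlrx1-/- library lay below every WT library, and the part of the gene that was deleted is not named in the sources used here. Among the astrocyte markers, all 10 were in the table, and *Slc1a3* and *Aldh1l1* held at least 463.6 TPM (transcript abundance corrected for length) in each library. Of 12 microglia markers, 10 were not in the filtered table, and none of these 10 exceeded 20 reads in a library. Nlrx1-/- litters 2 and 4 stood apart in vehicle, where the glial gene *Gfap* was at 7.37 and 8.35 log2 CPM against 9.51 to 11.34 in the other 6 litters, and the myelin gene *Mbp* at 2.49 and 3.0 against 5.93 to 7.84. They also stood apart after LPS + IFNγ, with *Gfap* at 8.61 and 8.50 against 9.33 to 10.58 and *Mbp* at 0.69 and 0.73 against 3.55 to 6.96. *Aqp4*, *Gja1*, *Slc1a2*, *Atp1b2* and *S100b* were also lower in these 2 litters than in all others in vehicle. Some markers did not follow in these 2 vehicle libraries. *Aldh1l1* was at 9.67 and 9.76 (9.40 to 9.65 in WT vehicle) and *Slc1a3* at 11.24 and 11.05 (11.06 to 11.21). The oligodendrocyte lineage gene *Olig1* was at 11.46 and 11.33 (10.65 to 11.05). The fits were therefore repeated without these 2 litters, a choice made after the data were seen, and values from them stand beside the results that moved most. Of the 10 genes, 8 have a span that overlaps another annotated gene (all but *Nqo1* and *Hmox1*). The libraries carry no strand information, so reads from sequence shared with another gene cannot be assigned by strand. How many reads this affects was not measured. In bulk RNA, a change in the share of a cell type cannot be told apart from a change in RNA per cell.

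On the TPM scale, which corrects for transcript length, *Prdx1* was the most abundant of the 10 in every group, at 645.7 ± 27.3 TPM (SD, n = 4) in WT vehicle. *Txnrd1* came next, at 144.1 ± 5.43 TPM, followed by *Nfe2l2* at 118.7 ± 7.25 and *Hmox1* at 118.5 ± 19.5, which overlapped each other. *Gclm* was at 84.9 ± 5.45 TPM, and *Gclc*, *Slc7a11*, *Sod2* and *Srxn1* lay between 52.7 and 62.9 TPM, each overlapping the next in order. *Nqo1* was lowest at 32.6 ± 0.628 TPM and separate from *Srxn1*. In Nlrx1-/- vehicle the order was similar, but *Slc7a11* was last at 33.3 ± 10.3 TPM (SD, n = 4) and its range overlapped that of *Nqo1*. After LPS + IFNγ *Slc7a11* reached 153.6 ± 46.5 TPM in WT and 158.9 ± 35.7 in Nlrx1-/- astrocytes, above *Sod2*, *Srxn1* and *Gclc* in both, and *Nqo1* was last in both at 17.5 ± 0.923 and 19.7 ± 3.02. The counts behind these levels ran from 333 reads in a library for *Nqo1* to 36532 for *Slc7a11*.

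**Figure D1:**
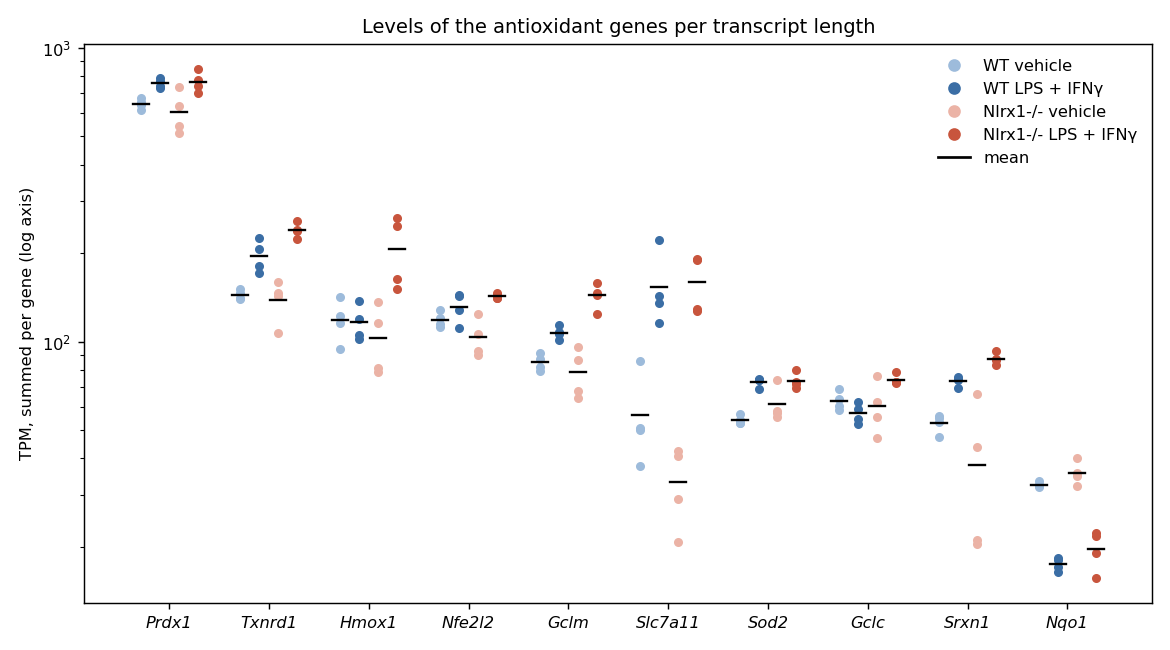
Level of each of the 10 genes in TPM on a log axis, with 4 libraries (points) and their mean (bar) in each of the 4 groups, and genes ordered by their mean over all libraries. *Prdx1* lies above the rest in all groups, from 513.0 to 844.4 TPM, and *Slc7a11* moves from 20.7 to 86.2 TPM in vehicle to between 115.5 and 221.3 TPM after LPS + IFNγ.

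LPS + IFNγ moved most of the 10 genes in both genotypes. Within WT litters 7 rose (*Nfe2l2*, *Gclm*, *Srxn1*, *Txnrd1*, *Slc7a11*, *Sod2* and *Prdx1*), *Nqo1* fell, and *Hmox1* and *Gclc* did not pass the test. Within Nlrx1-/- litters 9 rose and *Nqo1* fell. In the same fits, limma with litters as blocks and Benjamini-Hochberg adjustment over all genes, 46.7% of all genes were called in WT (24.9% up and 21.9% down) and 52.1% in Nlrx1-/- cells (26.6% up and 25.5% down). These p-values measure the spread of the responses between litters, and for each gene both genotypes share the same estimate of it. The WT p-values and intervals therefore also carry the spread of the Nlrx1-/- litters. For *Hmox1* the SD of the litter responses was 0.16 in WT and 0.82 in Nlrx1-/-. All 4 stimulated libraries lay above all 4 vehicle libraries for 7 of the 10 genes in WT, against 20.2% of all genes, and for 9 in Nlrx1-/-, against 17.6%. They lay below for *Nqo1* in both genotypes, against 17.6% and 14.4%. The median log2 fold change of the 10 genes was 0.51 in WT and 0.82 in Nlrx1-/-, against -0.02 over all genes in each genotype. With Nlrx1-/- litters 2 and 4 left out the Nlrx1-/- median was 0.53, close to that of WT, with the same count of 9 up and 1 down. In that fit 3396 of all 16707 genes were called up and 3026 down in Nlrx1-/-. Scaling matters here, since the deposited values of the stimulated libraries sum to more than those of the vehicle libraries. With all libraries set to equal sums, a check added after the data were seen, the median of all genes was -0.18 in WT and -0.20 in Nlrx1-/-, and calls shifted from 4154 up and 3656 down to 2590 up and 6070 down in WT, and from 4448 up and 4256 down to 2830 up and 6570 down in Nlrx1-/-. Cell type markers moved with the stimulus as well. Of 10 oligodendrocyte lineage markers 6 fell in WT and 8 in Nlrx1-/- with none up, of 4 ependymal markers 3 fell in both, and of 10 astrocyte markers 3 rose and 4 fell in WT and 2 rose and 5 fell in Nlrx1-/-. The part of these markers in the responses was not tested. With equal sums 6 of the 10 genes rose in WT, without *Nfe2l2*, and 9 in Nlrx1-/-, and *Nqo1* fell in both. Of the called values, those of *Prdx1* in WT (0.29) and of *Sod2* (0.28) and *Gclc* (0.32) in Nlrx1-/- were over 1.5 times smaller there.

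**Figure D2:**
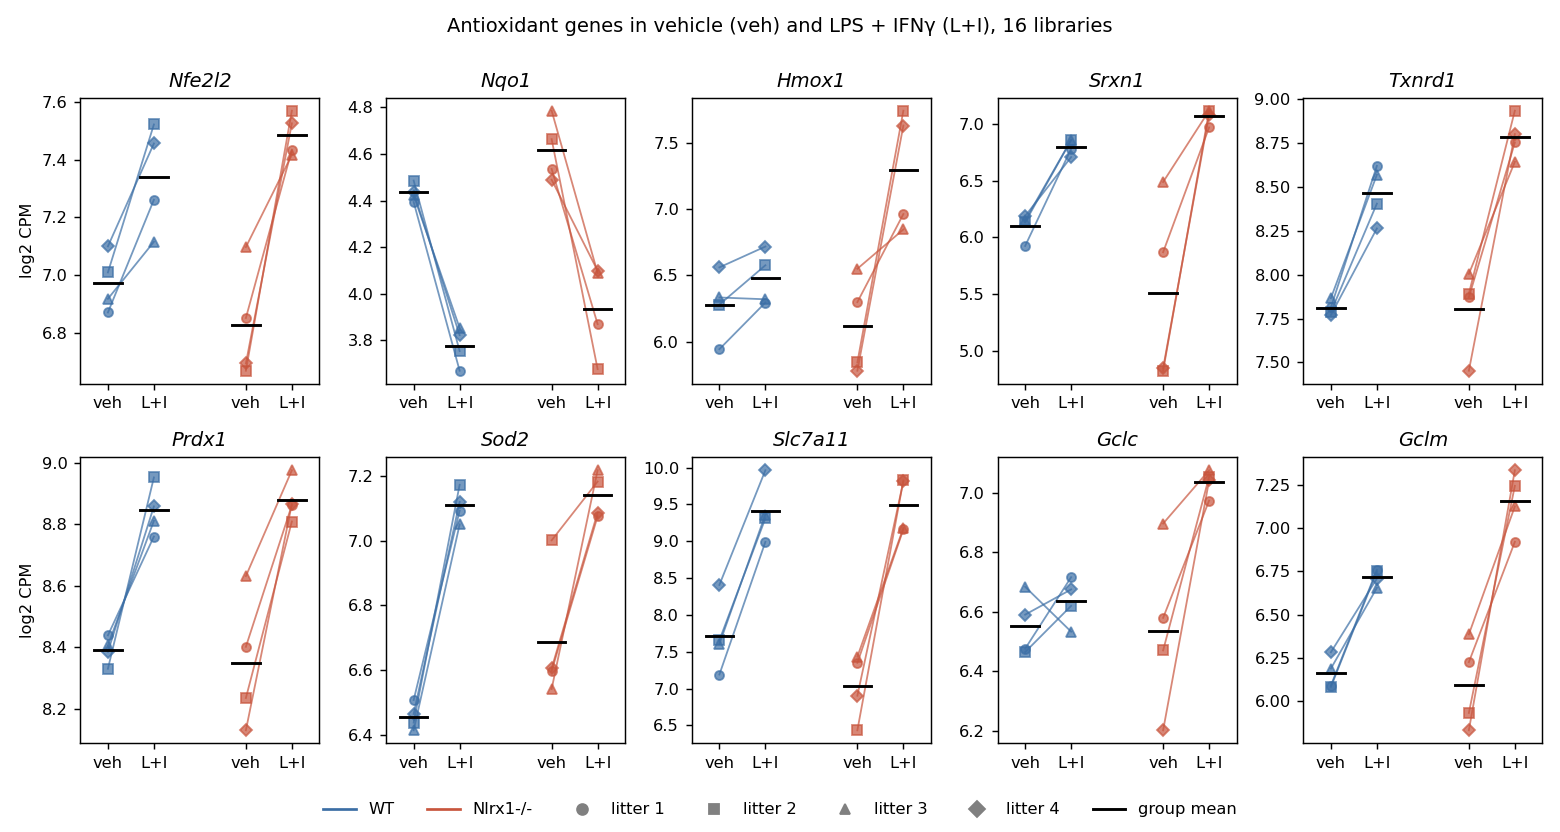
Level of each gene in log2 CPM in vehicle (veh) and LPS + IFNγ (L+I), with the 2 libraries of a litter joined by a line, WT in blue and Nlrx1-/- in red, and black bars at group means. *Nqo1* falls in every litter, while *Srxn1* and *Slc7a11* start lowest in Nlrx1-/- litters 2 and 4. These litters end near the other Nlrx1-/- litters for *Srxn1* and above them for *Slc7a11*.

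*Nfe2l2* (chromosome 2, 75504739 to 75534985, minus strand, GRCm39) encodes NRF2 itself. Its level in WT vehicle was 6.87, 7.01, 6.92 and 7.10 log2 CPM in litters 1 to 4, and 7.26, 7.52, 7.12 and 7.46 in WT LPS + IFNγ. In Nlrx1-/- litters it went from 6.85, 6.67, 7.10 and 6.70 to 7.43, 7.57, 7.42 and 7.53. In both genotypes the stimulated libraries lay above all vehicle libraries. The log2 fold change was 0.36 in WT (standard error 0.08, adjusted p = 0.00381 by limma) and 0.66 in Nlrx1-/- (standard error 0.08, adjusted p = 4.45e-05 by limma), or 1.29-fold and 1.58-fold. On equal sums the WT value was 0.20 (adjusted p = 0.0508 by limma), and without Nlrx1-/- litters 2 and 4 the Nlrx1-/- value was 0.45 (adjusted p = 0.000647).

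The largest responses were those of *Slc7a11* (chromosome 3, 49846975 to 50398070, minus strand), the light chain of the cystine/glutamate exchanger xCT that brings in cystine for glutathione synthesis. In WT litters 1 to 4 it went from 7.19, 7.66, 7.61 and 8.41 log2 CPM to 8.99, 9.31, 9.36 and 9.96, a rise of between 1.56 and 1.8 in each litter. In Nlrx1-/- litters it went from 7.35, 6.43, 7.43 and 6.90 to 9.16, 9.83, 9.18 and 9.81, so the litters that were lowest in vehicle were highest after LPS + IFNγ. The log2 fold change was 1.69 in WT (95% interval 1.23 to 2.15, adjusted p = 4.43e-05 by limma) and 2.46 in Nlrx1-/- (2.00 to 2.93, adjusted p = 1.66e-06), or 3.23-fold and 5.52-fold. Without Nlrx1-/- litters 2 and 4 the latter was 1.78.

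*Gclc* (chromosome 9, 77661797 to 77701770, plus strand) and *Gclm* (chromosome 3, 122039126 to 122065061, plus strand) encode the catalytic and modifier subunits of glutamate-cysteine ligase, the rate-limiting enzyme of glutathione synthesis. The modifier subunit rose in both genotypes. *Gclm* went from 6.09, 6.08, 6.19 and 6.28 log2 CPM to 6.76, 6.75, 6.66 and 6.71 in WT and from 6.22, 5.93, 6.39 and 5.83 to 6.92, 7.25, 7.13 and 7.34 in Nlrx1-/-, with a log2 fold change of 0.56 (adjusted p = 0.0019 by limma) and 1.07 (adjusted p = 1.18e-05). *Gclc* went from 6.48, 6.47, 6.68 and 6.59 to 6.72, 6.62, 6.53 and 6.68 in WT, where litter 3 fell and the groups overlapped (log2 fold change 0.08, 95% interval -0.12 to 0.28, adjusted p = 0.493). On equal sums this WT value of *Gclc* was -0.09. In Nlrx1-/- it went from 6.58, 6.47, 6.90 and 6.2 to 6.97, 7.05, 7.08 and 7.04, with all stimulated libraries above all vehicle libraries (0.50, adjusted p = 0.00074 by limma). Without Nlrx1-/- litters 2 and 4 the values of the Nlrx1-/- response were 0.72 for *Gclm* and 0.29 for *Gclc* (adjusted p = 7.21e-06 and 0.0205).

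*Srxn1* (chromosome 2, 151947436 to 151957687, plus strand) encodes sulfiredoxin, which repairs over-oxidised peroxiredoxins. It went from 5.92, 6.13, 6.15 and 6.19 log2 CPM to 6.78, 6.86, 6.86 and 6.71 in WT, and from 5.87, 4.82, 6.49 and 4.85 to 6.97, 7.12, 7.12 and 7.08 in Nlrx1-/-. The spread of *Srxn1* in Nlrx1-/- vehicle was 0.82 (SD, n = 4), the largest of the 10 genes in any group, and it was 0.07 in the same litters after LPS + IFNγ. Its log2 fold change was 0.70 in WT (adjusted p = 0.019 by limma) and 1.56 in Nlrx1-/- (adjusted p = 8.34e-05). The WT call did not pass without WT litter 1, 2 or 3, with values between 0.65 and 0.70 and adjusted p between 0.0625 and 0.0708, or without a variance trend in limma (adjusted p = 0.0713). Without Nlrx1-/- litters 2 and 4 the standard error of the WT response went from 0.22 to 0.07 and its adjusted p was 3.22e-06, and the Nlrx1-/- response was 0.86 (adjusted p = 2.12e-05 by limma).

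*Txnrd1* (chromosome 10, 82669785 to 82733546, plus strand), cytosolic thioredoxin reductase, and *Prdx1* (chromosome 4, 116532123 to 116558398, plus strand), a thioredoxin-dependent peroxidase, rose in all 8 litters. *Txnrd1* went from 7.81, 7.79, 7.87 and 7.77 log2 CPM to 8.62, 8.41, 8.57 and 8.26 in WT and from 7.87, 7.89, 8.0 and 7.45 to 8.75, 8.94, 8.64 and 8.80 in Nlrx1-/-. These were changes of 0.66 in WT (adjusted p = 9.71e-05 by limma) and 0.98 in Nlrx1-/- (adjusted p = 3.10e-06). *Prdx1* rose by 0.46 in WT (adjusted p = 0.000126 by limma) and by 0.53 in Nlrx1-/- (adjusted p = 3.19e-05), with single litters between 0.32 and 0.74. *Sod2* (chromosome 17, 13224095 to 13259591, plus strand), the manganese superoxide dismutase of mitochondria and also a well-known NF-κB target, went from 6.51, 6.44, 6.41 and 6.47 to 7.09, 7.17, 7.05 and 7.12 in WT. In Nlrx1-/- it went from 6.60, 7.0, 6.54 and 6.61 to 7.08, 7.18, 7.22 and 7.09, where litter 2 was already high in vehicle. Its log2 fold change was 0.65 in WT (adjusted p = 9.72e-06 by limma) and 0.45 in Nlrx1-/- (adjusted p = 0.000145). *Sod2* and *Nqo1* were the 2 of the 10 genes whose fitted response was lower in Nlrx1-/- than in WT.

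*Hmox1* (chromosome 8, 75820241 to 75827217, plus strand) encodes heme oxygenase 1, which breaks heme down to biliverdin, iron and carbon monoxide. In WT litters it went from 5.94, 6.28, 6.33 and 6.56 log2 CPM to 6.30, 6.58, 6.32 and 6.72, and the groups overlapped (log2 fold change 0.20, 95% interval -0.27 to 0.67, adjusted p = 0.478 by limma). In Nlrx1-/- it went from 6.30, 5.84, 6.55 and 5.78 to 6.96, 7.74, 6.85 and 7.63, with no overlap. The litters again fell into 2 sizes of response, 1.90 and 1.85 in litters 2 and 4 against 0.67 and 0.30 in litters 1 and 3. The Nlrx1-/- log2 fold change was 1.18 (95% interval 0.71 to 1.65, adjusted p = 0.000669 by limma). Without litters 2 and 4 it was 0.48 (adjusted p = 0.0017), and the WT value of 0.20 then had a standard error of 0.07 in place of 0.22 and an adjusted p of 0.0281.

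*Nqo1* (chromosome 8, 108113835 to 108129934, minus strand), a quinone reductase and a classical NRF2 target, was the 1 gene of the 10 that fell. It went from 4.39, 4.49, 4.42 and 4.44 log2 CPM to 3.67, 3.75, 3.85 and 3.82 in WT and from 4.54, 4.66, 4.79 and 4.49 to 3.87, 3.68, 4.09 and 4.10 in Nlrx1-/-. All stimulated libraries lay below all vehicle libraries in both genotypes. The change was -0.66 in WT (adjusted p = 0.000137 by limma) and -0.69 in Nlrx1-/- (adjusted p = 8.48e-05), a 1.58-fold and 1.61-fold lower level. On equal sums these were -0.83 and -0.86.

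**Figure D3:**
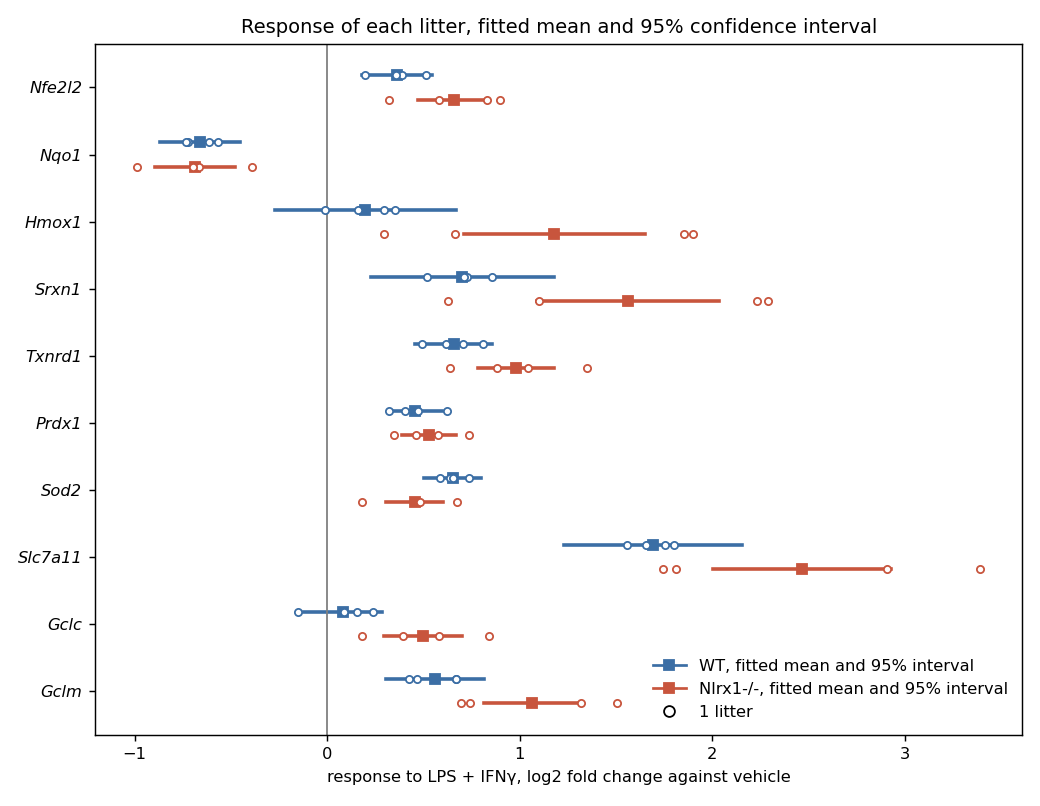
Response of each gene to LPS + IFNγ as log2 fold change against vehicle, with 1 open point per litter, and the fitted mean (square) with its 95% confidence interval (line) for WT in blue and Nlrx1-/- in red. The WT litters lie close together, as for *Slc7a11* between 1.56 and 1.8, while the Nlrx1-/- litters of *Slc7a11*, *Srxn1*, *Hmox1* and *Gclm* split into 2 higher and 2 lower ones.

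The difference between the responses, that of Nlrx1-/- minus that of WT, was above 0 for 8 of the 10 genes, as it was for 48.4% of all genes. No gene of the 16707 passed the limma test of this interaction, 0% of them, while 2786 had an unadjusted p below 0.05, or 16.7%. The same count was 0 in edgeR and 296 in DESeq2, and none of the 10 genes was among those of DESeq2. Of the 10 genes, 7 had a higher response in Nlrx1-/- at an unadjusted p below 0.05 (*Nfe2l2*, *Hmox1*, *Srxn1*, *Txnrd1*, *Slc7a11*, *Gclc* and *Gclm*), against 6.76% of all genes. The difference was 0.98 for *Hmox1* (95% interval 0.32 to 1.65, adjusted p = 0.182 by limma), 0.86 for *Srxn1* (0.19 to 1.53, adjusted p = 0.205) and 0.77 for *Slc7a11* (0.12 to 1.43, adjusted p = 0.234). For *Gclm* it was 0.51 (0.15 to 0.86, adjusted p = 0.184 by limma), and *Gclm* was the 1 gene of the 10 for which every Nlrx1-/- litter responded more than every WT litter, as did 3.06% of all genes. The intervals of *Prdx1*, at 0.07 (-0.13 to 0.27), *Nqo1*, at -0.03 (-0.32 to 0.27), and *Sod2*, at -0.20 (-0.41 to 0.01), reached to both sides of 0.

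Which Nlrx1-/- litters entered decided this comparison. Without Nlrx1-/- litter 3 limma called 822 genes in the interaction, and all 7 genes named above were called as more strongly induced in Nlrx1-/-, from 0.41 for *Nfe2l2* (adjusted p = 0.0374) to 1.27 for *Hmox1* (adjusted p = 0.0221). Leaving out any other single litter left 0 of the 10 genes called. Without Nlrx1-/- litters 2 and 4, 0 of the 10 were called, the median difference in response over the 10 genes fell from 0.37 to 0.10, and that of *Slc7a11* from 0.77 to 0.09. It was then 0.28 for *Hmox1*, 0.20 for *Gclc*, 0.16 for *Srxn1* and *Gclm*, 0.11 for *Txnrd1*, 0.09 for *Nfe2l2*, and -0.08 for *Sod2*. These 2 litters were also the 2 lowest in Nlrx1-/- vehicle for 7 of the 10 genes, as for 21.9% of all genes, and litter 3 was the highest for 9 of the 10, as for 28.6%. Their summed astrocyte marker level in vehicle was 2979.8 and 3435.1 TPM. It was 4185.0 and 4998.7 TPM in Nlrx1-/- litters 1 and 3 and 4227.2 to 6867.3 TPM in WT. The sum moves with *Gfap*, which ranged from 123.8 to 2061.8 TPM over all libraries. *Gfap*, *Aqp4*, *Gja1*, *Slc1a2*, *Atp1b2* and *S100b* were each lower in these 2 litters than in all others in vehicle. For *Gja1* the values were 7.69 and 8.35 log2 CPM against 8.70 to 10.01. *Sox9* and *Aldoc* overlapped the other litters, and *Aldh1l1* and *Slc1a3* were not lower in the same way. The summed level of the oligodendrocyte lineage markers, to which *Olig1* gives the largest share, was 3374.0 and 3262.0 TPM in these litters and 2736.4 to 3311.4 TPM in WT vehicle, while *Mbp* was lower as given above. The part of cell composition in these differences was not tested.

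**Figure D4:**
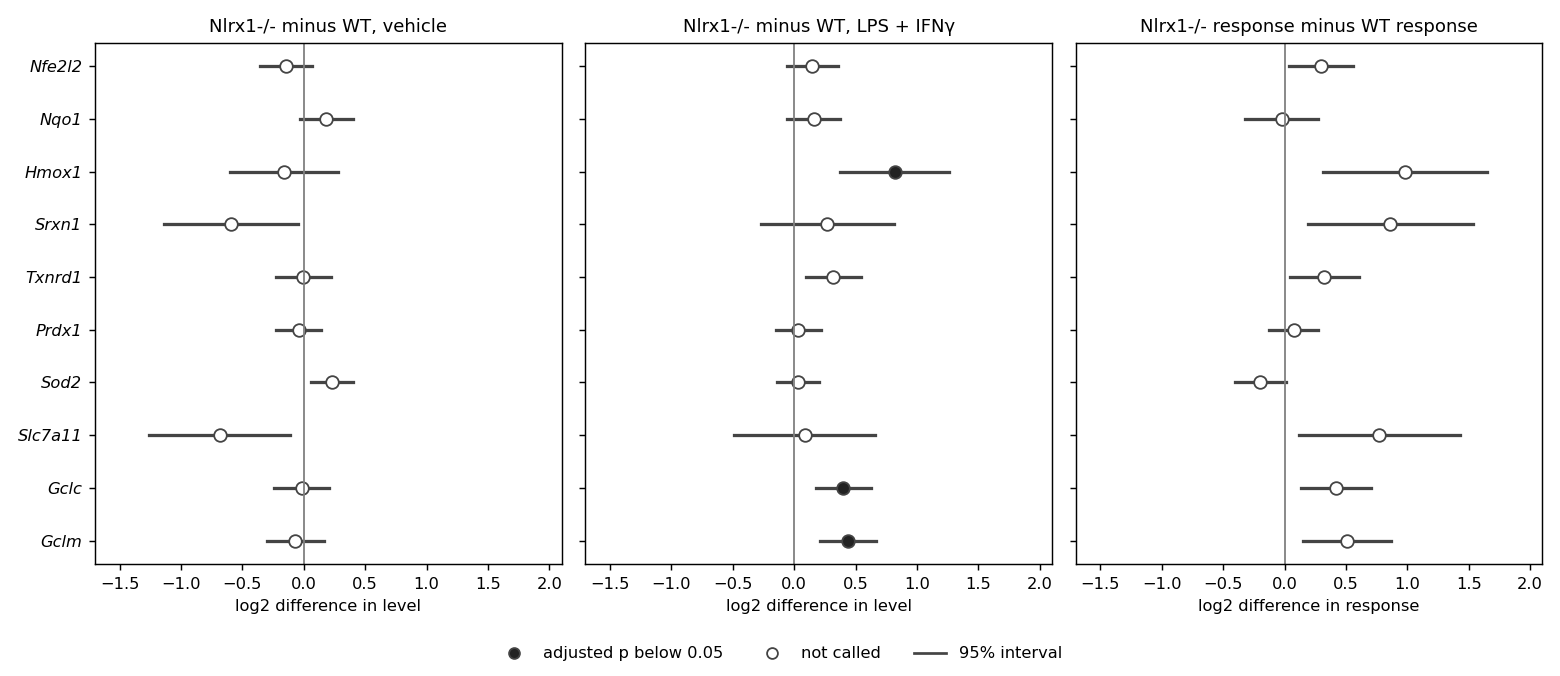
Differences between Nlrx1-/- and WT for each gene on the log2 scale, in level in vehicle (left), in level after LPS + IFNγ (middle) and in response (right), with 95% confidence intervals and filled points where the limma adjusted p is below 0.05. *Hmox1*, *Gclc* and *Gclm* are filled in the middle panel, and no point is filled in the others.

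After LPS + IFNγ, 3 of the 10 genes were higher in Nlrx1-/- than in WT, against 4.4% of all genes higher, 4.41% lower and 8.8% in either direction. *Hmox1* differed by 0.82 (95% interval 0.38 to 1.26, adjusted p = 0.0366 by limma), *Gclm* by 0.44 (0.21 to 0.67, adjusted p = 0.0352) and *Gclc* by 0.40 (0.18 to 0.62, adjusted p = 0.0379), or 1.76-fold, 1.36-fold and 1.32-fold. All 10 fitted differences were above 0, with a median of 0.21 against -0.00 over all genes. The 4 Nlrx1-/- libraries lay above all 4 WT libraries for 5 genes (*Hmox1*, *Gclc*, *Gclm*, *Srxn1* and *Txnrd1*), as they did for 7.09% of all genes. *Txnrd1* was higher by 0.32 with an adjusted p of 0.0635, and *Srxn1* by 0.27 (95% interval -0.27 to 0.81). The 3 calls depended on single litters. All 3 passed without WT litter 1 or Nlrx1-/- litter 3, where *Txnrd1* was called as well, and *Gclm* and *Hmox1* passed without Nlrx1-/- litter 1, but none passed without WT litter 2, 3 or 4 or without Nlrx1-/- litter 2 or 4, where adjusted p lay between 0.0759 and 0.132. None passed in limma without a variance trend, in the 8 stimulated libraries alone or at a threshold of 0.01. Each setting in which none passed called only 1 or 2 of all 16707 genes. The calls also differed by tool: edgeR called *Gclm* and *Hmox1*, with *Gclc* at an adjusted p of 0.0517, limma-voom called *Gclm* alone, and DESeq2 called all 3 with *Txnrd1*. Without both Nlrx1-/- litters 2 and 4 the difference was 0.43 for *Hmox1*, 0.31 for *Gclm* and 0.39 for *Gclc* (adjusted p = 0.306, 0.245 and 0.23 by limma), so that of *Gclc* kept its size. That fit, with only litters 1 and 3 of Nlrx1-/-, called 3 of all 16707 genes, against 1471 with all litters. A call lost in it therefore says little about a single gene, here and below. With all litters, 5 of 10 astrocyte markers, 2 of 10 oligodendrocyte lineage markers and 2 of 4 ependymal markers were called lower in Nlrx1-/- after LPS + IFNγ and none higher. Of 12 microglia markers, 10 were at most at 20 reads in any library. The part of these markers in the results was not tested.

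In vehicle no gene of the 10 differed between the genotypes by limma, where 0.00599% of all genes were called, that is *Nlrx1* alone, and 3532 genes, or 21.1%, had an unadjusted p below 0.05. DESeq2 called 735 genes there, none of the 10. *Slc7a11* was at -0.69 (95% interval -1.26 to -0.11, adjusted p = 0.176 by limma), or at -0.32 without Nlrx1-/- litters 2 and 4, and *Srxn1* at -0.59 (-1.14 to -0.05, adjusted p = 0.203). *Srxn1* was called as lower in Nlrx1-/- without Nlrx1-/- litter 3 (-0.92, adjusted p = 0.0106), and without litters 2 and 4 its value was 0.08. *Sod2* was at 0.23 (0.06 to 0.40, adjusted p = 0.142), or at 0.11 without litters 2 and 4, of which litter 2 was the highest. Every Nlrx1-/- vehicle library of *Sod2* and of *Nqo1* lay above all WT vehicle libraries, as for 6.02% of all genes. None of the 10 genes had every Nlrx1-/- vehicle library below all WT ones, as 3.43% of all genes did. The median SD within a group for the 10 genes was 0.10 in WT vehicle and 0.25 in Nlrx1-/- vehicle, against 0.17 and 0.22 over all genes.

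The other genes of the pathway were described by lists, whose counts stand against the shares of all genes given above: 24.9% up and 21.9% down in WT, 26.6% up and 25.5% down in Nlrx1-/-, and 4.4% higher and 4.41% lower in Nlrx1-/- after LPS + IFNγ. Among 14 regulators of NRF2, 7 rose and 2 fell in WT and 9 rose and 2 fell in Nlrx1-/-, with medians of 0.23 and 0.41. *Keap1*, which holds NRF2 for degradation, rose by 0.93 in WT and 0.96 in Nlrx1-/-. *Maff*, a small MAF partner, rose by 0.76 and 1.52, where the WT call needed litters as blocks (adjusted p = 0.198 without them), and *Nfe2l1*, which encodes the related factor NRF1, by 0.79 and 1.06. *Sesn2*, a stress-induced sestrin, rose by 0.96 and 1.81 and was higher in Nlrx1-/- after LPS + IFNγ by 1.21 (adjusted p = 0.0349 by limma), as were *Mafg* by 0.51 (adjusted p = 0.0412) and *Cul3* by 0.20 (adjusted p = 0.044). Without Nlrx1-/- litters 2 and 4 the Nlrx1-/- response of *Maff* was 0.92. These 3 differences were then 0.51, 0.21 and 0.20, and none passed, in a fit that called 3 of all 16707 genes.

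Of 29 further NRF2 targets in the table, 17 rose and 4 fell in WT, and 16 rose and 5 fell in Nlrx1-/-, with medians of 0.31 and 0.41. *Osgin1*, an oxidative stress-induced growth inhibitor, rose by 1.12 and 2.25, and *Aox1*, aldehyde oxidase, by 0.47 and 1.10. The WT call of *Aox1* was lost without WT litter 1 or 2 (adjusted p = 0.0693 and 0.0594) and on equal sums (0.30), and its Nlrx1-/- value was 0.70 without Nlrx1-/- litters 2 and 4. *G6pdx* and *Pgd*, the NADPH-producing enzymes of the pentose phosphate pathway, rose by about the same in both genotypes, at 0.86 and 0.85 for *G6pdx* and 0.85 and 0.91 for *Pgd*. After LPS + IFNγ 3 of the 29 differed between genotypes, near the 8.8% of all genes: the porphyrin transporter *Abcb6* was higher in Nlrx1-/- (0.78, adjusted p = 0.0369 by limma), and lower were *Idh1*, cytosolic isocitrate dehydrogenase (-0.20, adjusted p = 0.0454), and *Ugdh*, UDP-glucose dehydrogenase (-0.50, adjusted p = 0.0457). Without Nlrx1-/- litters 2 and 4 they were 0.43, -0.16 and -0.26, and none passed, in a fit that called 3 of all 16707 genes. The median difference of these 29 targets was 0.01, against 0.21 for the 10 genes above.

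Of 17 glutathione genes, 9 rose and 2 fell in WT and 8 rose and 5 fell in Nlrx1-/-. *Slc3a2*, the heavy chain that pairs with the *Slc7a11* product, rose by 0.46 in WT and 0.99 in Nlrx1-/- (0.53 without Nlrx1-/- litters 2 and 4). The WT call did not hold with any WT litter left out (adjusted p up to 0.0973 by limma). Over all alternatives the WT value ranged from 0.29 to 0.66. *Ggt5*, a gamma-glutamyltransferase that cleaves glutathione outside the cell, rose by 4.73 in WT and 2.39 in Nlrx1-/-, or 3.60 without Nlrx1-/- litters 2 and 4. *Ggt1*, its relative, was at -1.01 in WT and fell by 1.62 in Nlrx1-/-, a call lost without Nlrx1-/- litter 4 (-0.88, adjusted p = 0.0654). *Ggt1* is a low gene, and on the log2(CPM + 1) scale its Nlrx1-/- value was -0.59. It was -0.63 and not called without Nlrx1-/- litters 2 and 4. *Chac1*, which degrades glutathione and is a target of the amino acid response, was at 0.68 in WT (adjusted p = 0.298 by limma) and rose by 2.75 in Nlrx1-/- (adjusted p = 0.000784), or by 1.8 without Nlrx1-/- litters 2 and 4 (adjusted p = 0.0315). It was higher in Nlrx1-/- after LPS + IFNγ by 2.42 (adjusted p = 0.0402), and by 1.05 without Nlrx1-/- litters 2 and 4 (adjusted p = 0.466). *Gpx1*, the main cytosolic glutathione peroxidase, rose by 0.87 and 0.72 and was lower in Nlrx1-/- after LPS + IFNγ (-0.40, adjusted p = 0.0489), a call lost without those litters (-0.24, adjusted p = 0.406).

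Of 17 other peroxiredoxin, thioredoxin and superoxide dismutase genes, 8 rose and 3 fell in WT and 6 rose and 6 fell in Nlrx1-/-, with medians of 0.11 and 0.00. *Sod3*, the secreted superoxide dismutase, rose by 1.41 and 1.20, and *Msra*, a methionine sulfoxide reductase, by 0.98 and 0.68. *Txnip*, which binds and inhibits thioredoxin, was at 0.01 in WT and fell by 0.71 in Nlrx1-/- (adjusted p = 0.0046 by limma), or at -0.31 without Nlrx1-/- litters 2 and 4 (adjusted p = 0.19). After LPS + IFNγ the sestrin *Sesn2*, which also stands in this list, was higher in Nlrx1-/- as given above, and *Prdx2*, another peroxiredoxin, was lower (-0.19, adjusted p = 0.0497), a call lost without those litters (-0.12, adjusted p = 0.458) and with some single litters left out (adjusted p up to 0.167). Among 8 heme and iron genes, 2 rose and 1 fell in WT and 3 rose and 2 fell in Nlrx1-/-. *Blvrb*, biliverdin reductase B, rose by 0.71 and 0.47 (0.29 in Nlrx1-/- on equal sums), and the iron exporter *Slc40a1* fell by 1.51 in WT and by 0.98 in Nlrx1-/- (-0.97 and -0.61 on the log2(CPM + 1) scale). The Nlrx1-/- call of *Slc40a1* was lost without litter 1 or 3 (adjusted p = 0.0618 and 0.0706). *Alas1*, the first enzyme of heme synthesis, rose by 0.25 and 0.29, calls that did not pass on equal sums (0.08 and 0.11), and *Fech*, the last enzyme, was at -0.08 in WT and fell by 0.18 in Nlrx1-/-, a call lost without litter 3 or 4 (adjusted p = 0.0507 and 0.15) and without both litters 2 and 4 (-0.11).

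Of 17 genes for sources of superoxide or nitric oxide, 9 were in the table, of which 4 rose in both genotypes while 1 fell in WT and 2 in Nlrx1-/-. *Xdh*, xanthine dehydrogenase, rose by 7.36 in WT and 7.63 in Nlrx1-/-, and *Nos1*, neuronal nitric oxide synthase, by 4.74 and 4.75. *Nos2*, the inducible nitric oxide synthase, rose by 2.92 and 3.56, and *Cybb*, the catalytic subunit of the phagocyte NADPH oxidase, by 2.12 and 2.32. The WT call of *Cybb* was lost without WT litter 1 (1.62, adjusted p = 0.0692), and its Nlrx1-/- call without Nlrx1-/- litters 2 and 4 (1.43, adjusted p = 0.195). These values depend on how counts near 0 are treated: in vehicle the mean log2 CPM of *Xdh*, *Nos2* and *Cybb* lay between -3.65 and -2.63. On a log2(CPM + 1) scale the WT and Nlrx1-/- responses were 4.44 and 4.27 for *Xdh*, 0.94 and 1.25 for *Nos2*, and 0.40 and 0.41 for *Cybb*, all still called. *Nos1* was less affected, at 3.94 and 3.78. No gene of this list differed between the genotypes in vehicle or after LPS + IFNγ by limma.

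**Figure D5:**
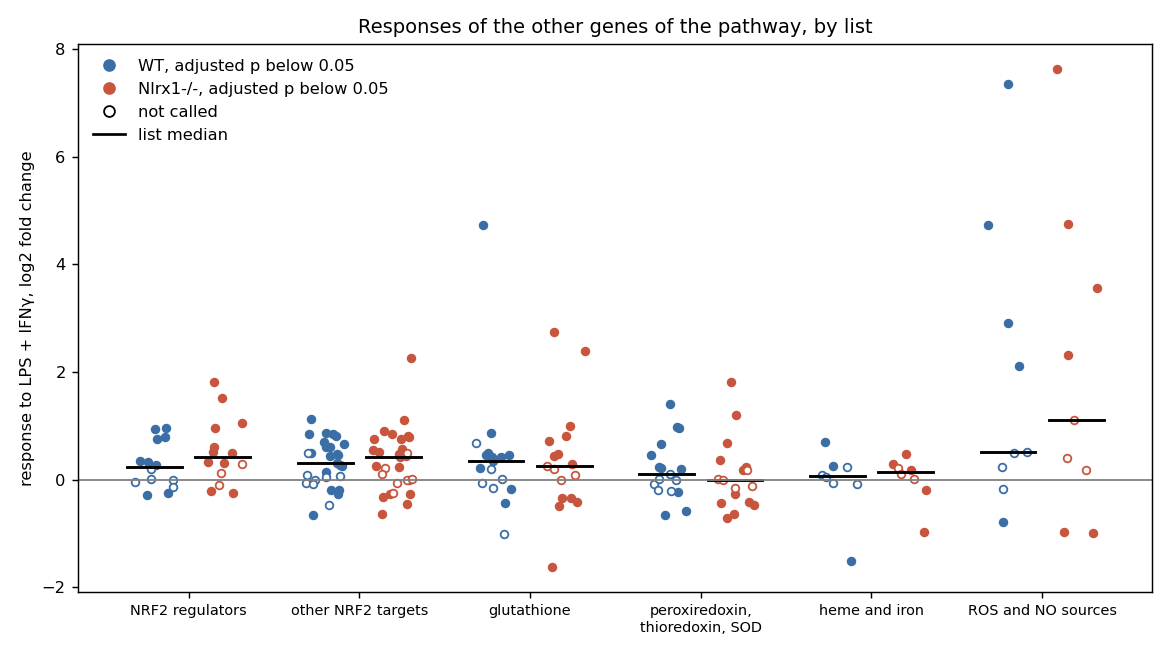
Response to LPS + IFNγ as log2 fold change for the genes of the 6 other lists, WT in blue and Nlrx1-/- in red, filled where the limma adjusted p is below 0.05, with black bars at list medians and points spread sideways for visibility. The 4 called genes at the top of the list of superoxide and nitric oxide sources reach from 2.12 to 7.63, above most genes of the other lists.

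The genes whose pattern over the 16 libraries was most like that of *Nfe2l2* were *Tfe3*, *Nfkbib* and *Tbk1*, at a root mean square difference of 0.08, 0.08 and 0.11 log2 CPM after each gene was centred on its mean, against a median of 0.37 over the 12600 genes compared. For *Slc7a11* they were *Tlr4*, the LPS receptor, *Mmp19* and *Tifa*, at 0.30, 0.31 and 0.32, against a median of 1.15. These are distances between profiles and carry no test.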

How the data were processed

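RNA of 16 astrocyte libraries was sequenced without strand information after poly-A selection. The authors quantified transcripts with Salmon 1.7.0 against GRCm39, and the deposited files give expected counts, TPM and effective lengths per transcript. The authors also deposited gene tables of CPM, a TMM-adjusted signal whose columns sum to 92.3% to 111% of a common total, and of the same values as log2 CPM, made from length-scaled counts after removal of low genes. The authors made the normalised values with limma-voom (limma 3.58.1) and their lists of changed genes with DESeq2, and those lists were not used here. No sample column was left over (0).

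Here limma 3.58.1 (R 4.3.3, lmFit and eBayes with a trend) was run on the deposited log2 CPM of all 16707 genes, two-sided, adjusted by Benjamini-Hochberg, and called at 0.05. Responses and their difference were fitted with litters as blocks, in the same fit for both genotypes. Differences between genotypes came from a model of the 4 conditions without litters. Count models were alternatives (edgeR 4.0.16, DESeq2 1.42.0, limma-voom), because only 106440 of 129698 transcripts, with 96.7% to 97.3% of reads, could be paired with a gene. That pairing also underlies TPM per gene. Gene positions are from GENCODE M39 on GRCm39, and promoters from RefSeq on GRCm38.p6. Python 3.11.15 with pandas 2.3.3 and matplotlib 3.10.9 made the summaries and figures.

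The series design states that both wells of a litter came from the same mice. Deviations of a litter's 2 libraries correlated at 0.07 to 0.35, each of 8 litters best with its own.

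The members and lists were chosen with earlier results of these data known. Named genes were the 10 members, *Nlrx1*, the 4 largest called responses of each list, every listed gene called between genotypes, and the 3 nearest patterns. The fits were tested on simulated data. Alternatives were other tools, no variance trend, log2(CPM + 1), a filter on a mean log2 CPM of 1, a threshold of 0.01, other blocks, only the 8 libraries of a treatment, each litter left out and, added after the data were seen, equal column sums and both Nlrx1-/- litters 2 and 4 left out.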

Additional observations from a re-analysis of the deposited data

Results flagged for a closer look

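Of 66 sets of 4 values examined for a library far from the other 3 (levels and responses of the 10 genes and *Nlrx1*), 3 were flagged by Dixon's criterion at the 95% level, where chance flags about 1 in 20. *Sod2* in Nlrx1-/- vehicle was at 7.0 log2 CPM in litter 2, against 6.54 to 6.61 in the other litters. *Nlrx1* in Nlrx1-/- LPS + IFNγ was at 1.09 log2 CPM in litter 3, against 2.09 to 2.23 in the others. The response of *Nlrx1* in WT was -0.364 in litter 1, with the other litters closer to 0.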

How the results depend on the processing

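Of 940 alternative values for the 50 results on the 10 genes, 866 kept their direction and side of the threshold, 37 lost the call, 13 gained one and 24 changed sign. The cause of these changes was not tested.

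The interaction, with 0 genes called, had 296 in DESeq2 and from 0 to 822 with single litters left out. Between genotypes in vehicle, where 1 gene was called, there were 0 in edgeR, without a trend, with the filter on mean log2 CPM, at a threshold of 0.01 and in the 8 libraries alone, 735 in DESeq2, 2 without Nlrx1-/- litters 2 and 4, and from 0 to 1618 with single litters left out. After LPS + IFNγ, 1471 genes became 759 in edgeR, 2438 in DESeq2, 387 in limma-voom, 2 without a trend, 1 at a threshold of 0.01, 1 in the 8 libraries alone, 3 without Nlrx1-/- litters 2 and 4, and from 1 to 3868 with single litters left out. The highest counts were those without Nlrx1-/- litter 3.

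With the replicate number shared by WT and Nlrx1-/- as a replicate block, 591 genes were called in vehicle and 2815 after LPS + IFNγ. Same-numbered litters correlated at -0.09 to 0.18, so the numbers are not treated as pairs. Dropping the litter block from the responses changed no call of the 10 genes, but ended those of *Maff* in WT, *Abcb6* in both genotypes, and *Ugdh*, *Txnip*, *Fech* and *Nlrx1* in Nlrx1-/-.

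None of the values that changed sign passed the test. For the vehicle difference without Nlrx1-/- litters 2 and 4, *Hmox1* was at 0.15, *Gclc* 0.18, *Gclm* 0.15, *Srxn1* 0.080, *Txnrd1* 0.13 and *Prdx1* 0.13, while after LPS + IFNγ *Slc7a11* was at -0.24 and the interaction of *Prdx1* at -0.053. With single litters left out the vehicle difference ranged from -0.14 to 0.095 for *Gclc*, -0.16 to 0.020 for *Gclm*, -0.071 to 0.11 for *Txnrd1* and -0.13 to 0.033 for *Prdx1*, the LPS + IFNγ difference of *Slc7a11* from -0.051 to 0.27 and the interaction of *Nqo1* from -0.12 to 0.075. The interaction of *Nqo1* was 0.0042 in DESeq2 and 0.0027 in limma-voom, the vehicle difference of *Txnrd1* 0.0021 in edgeR, and the WT response of *Gclc* -0.086 on equal sums.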
